A study of Homo sapiens with 10 samples.

Results

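The genes described here encode the machinery of the chemical synapse: 25 presynaptic genes, whose products fill, dock, prime and fuse synaptic vesicles, and 20 postsynaptic and adhesion genes, whose products bridge the cleft, bind glutamate or hold receptors in place. They are the rows of a gene count table whose symbol is on a list of 45 synaptic genes. All 45 were found among the 46427 genes of the table. Of these, 44 passed edgeR's filter for low counts, as did 19465 genes in all. SLC17A7, which loads glutamate into vesicles, had 0 to 24 reads in a library and was not tested.

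The study asked whether short-chain phthalate esters, alone or combined, disturb human neural development in culture. The immortalised human progenitor line ReNcell VM, used in place of primary neural progenitors, was grown as neurospheres, plated on laminin and kept for 6 days in differentiation medium, and RNA from 6 pooled neurospheres gave each library. There were 5 groups of 2 libraries: vehicle (0.1% DMSO), DEP (diethyl phthalate), DProP, DPP and Mix, the last 4 each labelled 100 µM. DProP and DPP are used as the labels' short names without an expansion, and neither the make-up of Mix nor whether its dose was a total is given, so no structure is assigned to DPP or Mix. All cells came from 1 line, and nothing in the labels says whether the replicates of a group were separate cultures, so the spread behind each p-value may be technical.

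At a synapse, the vesicle protein synaptobrevin (VAMP) pairs with syntaxin and SNAP25 on the plasma membrane to form the SNARE complex that drives fusion. Complexins hold that complex ready, synaptotagmins sense calcium, and RIM, MUNC13, bassoon and piccolo organise the active zone where vesicles wait. Across the cleft, neurexins bind neuroligins, AMPA and NMDA receptors bind glutamate, and scaffolds of the PSD-95, SHANK and HOMER families anchor them. Many of these genes are switched on as progenitors become neurons, and several carry sites for the repressor REST, which keeps neuronal genes silent in other cells.

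Promoter sequence was printed for 4 genes picked from those whose levels changed in the comparisons that follow: SYN1, RAB3A and BSN, which fell, and HOMER1, which rose. Each line holds the 250 bases before the RefSeq start of the gene, 5′ to 3′ on the gene's strand (GRCh38.p14), in lower case. Capitals mark matches to the left part of the REST motif RE1 (TTCAGCACC), its right part (GGACAG) or the cAMP response element (TGACGTCA).
SYN1, chrX:47619858-47620107, minus strand: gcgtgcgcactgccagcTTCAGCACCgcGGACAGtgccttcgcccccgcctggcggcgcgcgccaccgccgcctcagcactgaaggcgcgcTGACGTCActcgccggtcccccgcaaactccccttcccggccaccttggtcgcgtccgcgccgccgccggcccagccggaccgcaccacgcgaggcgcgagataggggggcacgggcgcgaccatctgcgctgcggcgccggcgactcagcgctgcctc
RAB3A, chr19:18204043-18204292, minus strand: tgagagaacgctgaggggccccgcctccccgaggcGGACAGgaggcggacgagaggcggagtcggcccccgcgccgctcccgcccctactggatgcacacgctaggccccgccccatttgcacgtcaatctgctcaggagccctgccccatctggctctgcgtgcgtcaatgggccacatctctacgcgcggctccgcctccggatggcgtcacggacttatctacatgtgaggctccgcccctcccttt
BSN, chr3:49554227-49554476, plus strand: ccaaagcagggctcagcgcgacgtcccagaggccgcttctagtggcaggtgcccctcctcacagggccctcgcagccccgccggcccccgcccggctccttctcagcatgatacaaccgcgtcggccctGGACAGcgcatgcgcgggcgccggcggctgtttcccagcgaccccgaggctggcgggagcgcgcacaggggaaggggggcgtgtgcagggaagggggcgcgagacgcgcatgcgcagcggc
HOMER1, chr5:79514135-79514384, minus strand: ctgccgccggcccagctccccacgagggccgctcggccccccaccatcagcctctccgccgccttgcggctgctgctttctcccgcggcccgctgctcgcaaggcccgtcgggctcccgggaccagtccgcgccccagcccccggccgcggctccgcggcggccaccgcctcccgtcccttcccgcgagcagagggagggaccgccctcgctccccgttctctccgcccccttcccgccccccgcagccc

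Both strands were searched for these letters in the 35 promoter windows found for the 45 genes. SYN1 alone held the left part, which 0.3% of all 27305 windows held, and in SYN1 it stood 2 bases from the right part, a pairing found in 3 windows in all (0.011%). The right part is short and stood in 17.1% of all windows and in 7 of the 35, those of SYT1, SYN1, SV2A, RAB3A, UNC13A, BSN and SLC17A7. SYN1 also held the cAMP response element, present in 1.77% of windows. The HOMER1 window held none of the 3. These matches describe letters in a window and were not measured as binding in the neurospheres.

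The libraries held 57222381 to 72973100 counts, and the 45 genes took 0.2087% to 0.2478% of them. Vehicle differed from every treated group in the classes of RNA present: 0.0255% and 0.0343% of its counts fell on mitochondrially encoded messages against 0.0825% to 0.107% in treated libraries, and 21500 and 21603 genes had counts in its libraries against 22905 to 23646. Fold changes against vehicle also ran with GC content over 14821 genes (Spearman's rho -0.351 to -0.28), and less so between treatments (-0.138 to 0.0656). Whether the vehicle libraries were prepared apart from the others is not given, so treatment and preparation cannot be told apart in comparisons with vehicle. Comparisons between treatments do not use the vehicle libraries as a reference. In bulk RNA, a change in the share of neurons or other cells and a change in message per cell cannot be told apart either. Nor can the cells that a message came from.

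Levels between genes were compared as CPM (reads scaled to the size of the library) per kilobase of coding length, averaged over the 10 libraries. SYT11, an atypical synaptotagmin, was the highest at 439.6, followed by CPLX1 at 178 and GRIA1, an AMPA receptor subunit, at 138. The canonical calcium sensor SYT1 stood at 54.05, PSD-95 (DLG4) at 30.1 and SNAP25 at 19.4. Several genes of mature glutamatergic synapses were close to 0: the vesicular transporters SLC17A6 and SLC17A7 stood at 0.0580 and 0.0616, the obligatory NMDA receptor subunit GRIN1 at 0.118 and SHANK2 at 0.0670.

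**Figure D1:**
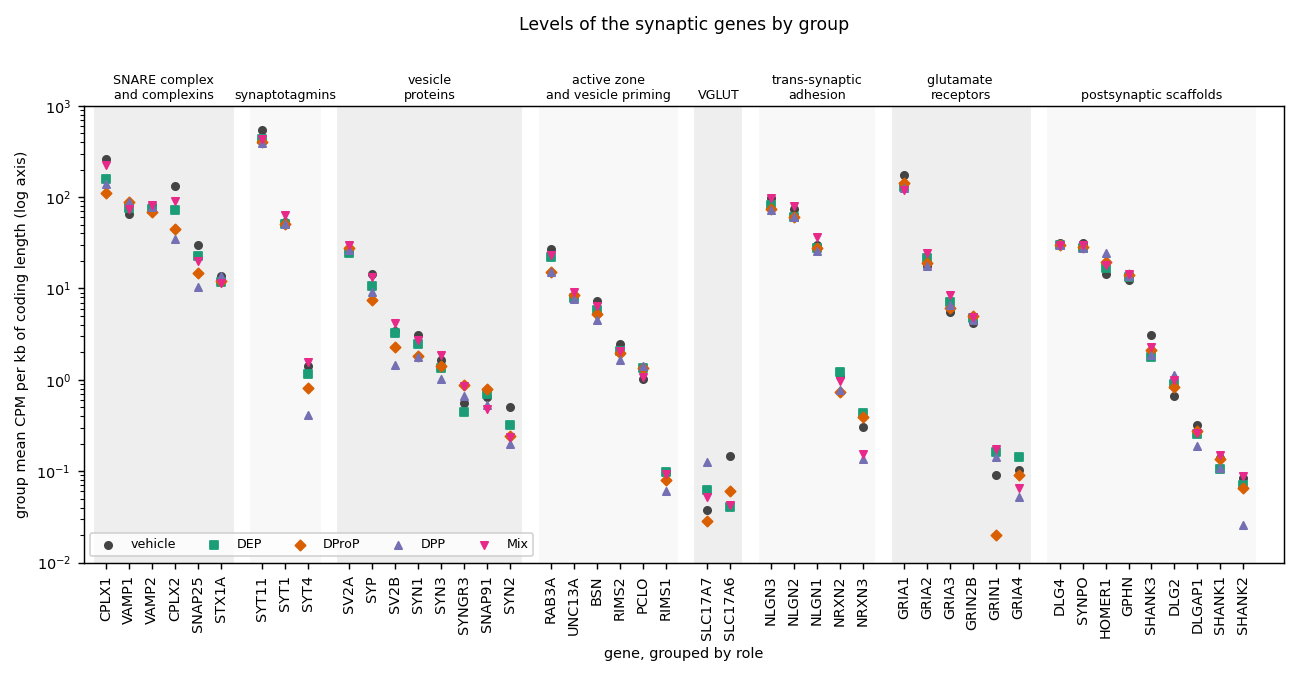
Group mean CPM per kilobase of coding length (log axis) for each of the 45 genes, ordered by role and then by level, with 1 symbol per group of 2 libraries. By the mean over the 10 libraries SYT11 is highest and SLC17A6, SLC17A7, SHANK2 and RIMS1 are lowest. The lowest single symbol is that of GRIN1 in DProP. The DPP value of SLC17A6, which is 0, cannot be drawn on this axis.

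Neuronal markers, when summed, were lower than in vehicle in all 4 treatments. The summed level of 11 of them (such as TUBB3, DCX, STMN2 and ELAVL4) was 2126 to 2196 CPM in vehicle, 1428 to 1573 in DEP, 1279 to 1342 in DProP, 1147 to 1255 in DPP and 1746 to 1780 in Mix, and none was at 0 in every library. Against vehicle 5, 7, 7 and 4 of the 11 fell in DEP, DProP, DPP and Mix, and 0, 1, 2 and 1 rose. The share that fell was 45.5%, 63.6%, 63.6% and 36.4%, against 13.5%, 17.5%, 19.5% and 10.7% of all tested genes. The share that rose was 0%, 9.09%, 18.2% and 9.09%, against 10.1%, 14.7%, 16.7% and 9.71%. Not all 11 went with the sum. NEFL, which encodes a neurofilament subunit, had the highest log2 fold change of the 11 in DProP (0.354) and DPP (0.815). It had the lowest of them in Mix (-0.884). In Mix the median log2 fold change of the neuronal markers was -0.257, against -0.0268 for the synaptic genes. Astrocyte markers (6 genes, 5930 to 6197 CPM summed in vehicle and 3094 to 3804 in treated libraries) and progenitor markers (6 genes, 6710 to 6764 and 3878 to 4261) were also lower after treatment. So were 6 mesenchymal markers (171.9 to 172.6 CPM summed in vehicle and 71.8 to 98.9 in treated libraries). In each treatment 4 of these 6 (66.7%) fell, against 10.7% to 19.5% of all tested genes. MBP, OLIG2 and SOX10, 3 of the 6 oligodendrocyte markers on the list, stayed under 1 CPM in each library, and the level of that list as a whole is not reported here. What part these shifts in cell markers have in the synaptic values was not tested.

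DEP was compared with vehicle first. Of the 44 tested synaptic genes, 10 fell and 3 rose (edgeR's quasi-likelihood test, Benjamini-Hochberg adjusted p under 0.05 over all tested genes). Among all tested genes 13.5% fell and 10.1% rose. Among the tested protein-coding genes, the class of the synaptic genes, 16.8% fell and 8.08% rose. The decreases were led by the complexins CPLX2 and CPLX1 and by the scaffold SHANK3, and took in SNAP25, SYP, BSN, SYT11, GRIA1, NLGN2 and NLGN3. The increases were in the AMPA receptor subunits GRIA2 and GRIA3 and in piccolo (PCLO). Of 24 tested presynaptic genes 6 fell (25%) and 1 rose (4.17%). Of 20 postsynaptic and adhesion genes 4 fell (20%) and 2 rose (10%), so the shares that fell were close. The median log2 fold change of the synaptic genes was -0.197, against 0.00794 for all tested genes. With library size as the only scaling, which moves the median of all genes to 0.164, 8 rose and 5 fell. Without DEP replicate 2 the calls numbered 5, without DEP replicate 1 there were 7, and without vehicle replicate 2 there were 8. CPLX2, SHANK3, GRIA1 and SYT11 held in every alternative other than a 2-fold minimum, and each of the other 9 ended without at least 1 library, with adjusted p values reaching 0.294 for SNAP25 and 0.49 for NLGN2 over their alternatives.

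DProP against vehicle gave 14 synaptic genes that fell and 3 that rose, beside 17.5% and 14.7% of all tested genes (protein-coding: 21.6% and 13.3%). Of 24 tested presynaptic genes 9 fell (37.5%) and 2 rose (8.33%). Of 20 postsynaptic and adhesion genes 5 fell (25%), near the share of protein-coding genes, and 1 rose (5%). Besides the complexins and SNAP25, decreases included SYP, RAB3A, SYN1 and SV2B. VAMP1, HOMER1 and PCLO rose. The median was -0.232 over the synaptic genes and 0.0171 over all tested genes. Library size alone gave 8 higher and 11 lower, with the median of all genes at 0.193. The calls of CPLX1, CPLX2, SNAP25, SYP, RAB3A, SYN1, BSN, SYT11, NLGN3, VAMP1 and HOMER1 held in all alternatives but the 2-fold minimum. Those of NRXN2, SV2B and PCLO ended without vehicle replicate 2 or DProP replicate 2, that of PCLO also without DProP replicate 1, that of NLGN2 ended without vehicle replicate 2, and that of GRIA1 ended without DProP replicate 1. SHANK3 lost its call only under the correction for GC content and length, apart from the 2-fold minimum (adjusted p = 0.15, the largest of its alternatives). That correction also ended the calls of NRXN2 (adjusted p = 0.207), NLGN2 (adjusted p = 0.573) and PCLO. Library size alone ended those of GRIA1 (adjusted p = 0.195), NRXN2 and NLGN2.

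DPP changed the most synaptic genes. Against vehicle 21 fell and 5 rose, beside 19.5% and 16.7% of all tested genes (protein-coding: 24.2% and 15.6%). Of the presynaptic genes 14 of 24 fell (58.3%) and 2 rose (8.33%). Of the postsynaptic and adhesion genes 7 of 20 fell (35%) and 3 rose (15%). SYT4, SYN2, SYN3, RIMS2, SHANK2 and SLC17A6 fell here and did not pass in the other comparisons with vehicle, which does not by itself show a difference between treatments. DLG2, HOMER1, PCLO, VAMP1 and GRIA3 rose. The median was -0.45 over the synaptic genes, also with SLC17A6 set at its bound, and 0.0173 over all tested genes. Without DPP replicate 2 the calls numbered 17. Of the 26 calls 16 held in all alternatives but the 2-fold minimum. Those that ended without at least 1 library were DLG2, GRIA3, SYN2, SYN3, NRXN2, NLGN1, NLGN2, SHANK2, PCLO and SLC17A6. Only SNAP25 and CPLX2 also passed a test against a 2-fold minimum.

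Mix against vehicle was balanced: 5 synaptic genes fell and 6 rose, beside 10.7% and 9.71% of all tested genes (protein-coding: 12.9% and 8.72%). SNAP25, CPLX2, GRIA1, SHANK3 and SYT11 fell, the only 5 genes that fell against vehicle in all 4 treatments. GRIA2, GRIA3, HOMER1, NLGN1, SYT1 and GPHN rose. Of the presynaptic genes 3 of 24 fell (12.5%) and 1 rose (4.17%). Of the postsynaptic and adhesion genes 2 of 20 fell (10%) and 5 rose (25%). The median was -0.0268, against 0.0167 over all tested genes, and library size alone, which puts the median of all genes at 0.159, gave 12 higher and 3 lower. Only GRIA1, GRIA2, GRIA3 and SYT11 held in all alternatives but the 2-fold minimum. Without Mix replicate 1 the calls numbered 4 and without vehicle replicate 1 they numbered 5, and the adjusted p of CPLX2 reached 0.171, of SNAP25 0.113 and of HOMER1 0.148 over their alternatives. Over all 4 treatments, 29 of the 44 tested genes (65.9%) were called at least once and 15 never, against 47.8% of all tested genes called at least once. The share called in all 4 was 11.4%, close to the 11.3% of all tested genes.

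**Figure D2:**
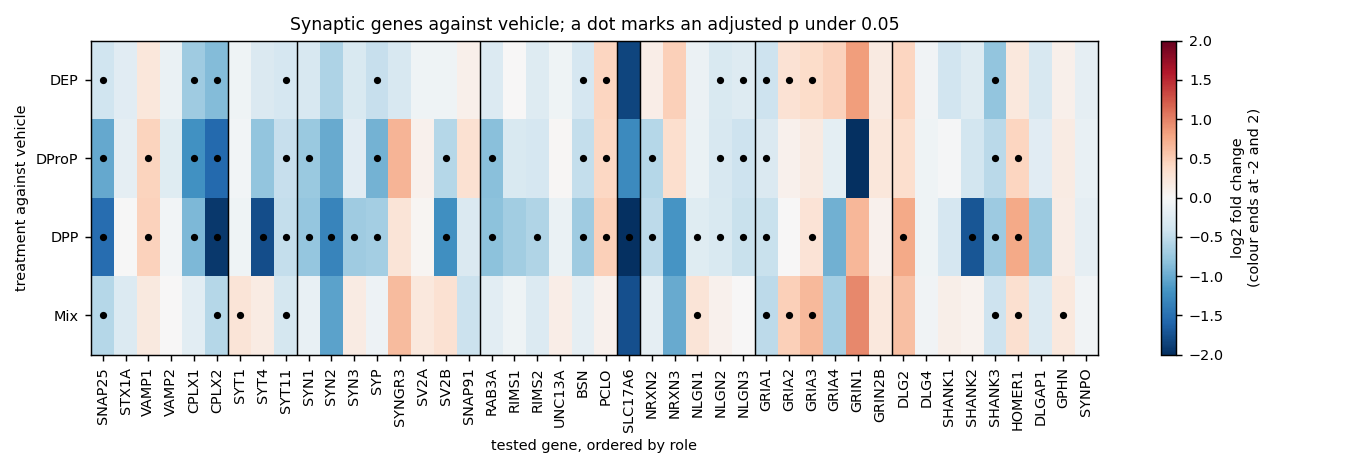
Log2 fold changes of the 44 tested genes (columns, by role) in each treatment against vehicle (rows), blue for lower and red for higher, with colours that end at -2 and 2. Dots mark the 10 lower and 3 higher calls of DEP, 14 and 3 of DProP, 21 and 5 of DPP, and 5 and 6 of Mix.

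In the SNARE complex the plasma-membrane partner SNAP25 (chr20:10218830-10307418, GRCh38) fell in every treatment. SNAP25 stood at 22.3 and 21.3 CPM in vehicle, 14.96 and 17.98 in DEP, 11.4 and 10.1 in DProP, 8.58 and 6.62 in DPP, and 13.7 and 15.6 in Mix. All treated libraries lay below both vehicle libraries, and the DPP libraries were the lowest. The log2 fold changes against vehicle (± SE) were -0.41 ± 0.13 (adjusted p = 0.0464) in DEP, -1.02 ± 0.14 (adjusted p = 0.000248) in DProP, -1.52 ± 0.14 (adjusted p = 1.31e-05) in DPP and -0.57 ± 0.13 (adjusted p = 0.0119) in Mix. Its SNARE partners were not called lower. STX1A, the plasma-membrane syntaxin, had a mean of 14.7 CPM in vehicle and 12.2 to 14.6 in the treated groups and was not called. The vesicle SNARE VAMP2 was not called either, at 29.5 CPM in vehicle and 25 to 29.7 after treatment. VAMP1 stood at 24.9 and 24.5 CPM in vehicle, 31.4 and 26.7 in DEP, 34.2 and 33.2 in DProP, 32.1 and 35.7 in DPP, and 26.8 and 29.8 in Mix. VAMP1, the related vesicle SNARE, rose in DProP (0.45 ± 0.09, adjusted p = 0.0037) and in DPP (0.46 ± 0.09, adjusted p = 0.00265).

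The complexins, small proteins that bind the assembled SNARE complex, were both lower, and CPLX2 had the steepest decrease in DEP, DProP and DPP of the synaptic genes with a vehicle mean over 5 CPM. CPLX2 stood at 51.8 and 55.6 CPM in vehicle, 25.7 and 33.2 in DEP, 14.9 and 21.4 in DProP, 14.8 and 13.3 in DPP, and 35.3 and 37.3 in Mix. CPLX2 (chr5:175796533-175884021) fell in all 4 treatments, with log2 fold changes of -0.87 ± 0.16 in DEP, -1.56 ± 0.16 in DProP, -1.94 ± 0.17 in DPP and -0.57 ± 0.16 in Mix and adjusted p values of 0.00404, 0.000117, 2.27e-05 and 0.0308. No treated library reached the vehicle range. CPLX1 stood at 102 and 106 CPM in vehicle, 68.9 and 57.9 in DEP, 48.3 and 41.7 in DProP, 62.1 and 49.2 in DPP, and 101 and 78.1 in Mix. CPLX1 (chr4:784957-826129) fell in DEP (-0.71 ± 0.15, adjusted p = 0.0097), DProP (-1.21 ± 0.15, adjusted p = 0.000511) and DPP (-0.90 ± 0.15, adjusted p = 0.00179), and its Mix value was -0.21 ± 0.15 (adjusted p = 0.348). The DProP libraries were the lowest for CPLX1 and the DPP libraries the lowest for CPLX2. The Mix call of CPLX2 ended without any 1 of the 4 libraries compared.

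Among the synaptotagmins the calcium sensor SYT1 and its relatives parted. SYT1 stood at 67.2 and 68.6 CPM in vehicle, 60.7 and 66.8 in DEP, 63.98 and 66.1 in DProP, 62.4 and 65.4 in DPP, and 84.3 and 78.8 in Mix. Both Mix libraries lay above every other library, and SYT1 rose there (0.26 ± 0.07, adjusted p = 0.0167), while the single phthalates gave -0.09 ± 0.07, -0.06 ± 0.07 and -0.09 ± 0.07 for DEP, DProP and DPP, none called. SYT11 stood at 685 and 728 CPM in vehicle, 549.8 and 566 in DEP, 525 and 505 in DProP, 510.0 and 509 in DPP, and 552 and 554 in Mix. SYT11, which does not act as a calcium sensor, fell in DEP (-0.34 ± 0.05, adjusted p = 0.00132), DProP (-0.46 ± 0.05, adjusted p = 0.00012), DPP (-0.47 ± 0.05, adjusted p = 6.30e-05) and Mix (-0.35 ± 0.05, adjusted p = 0.00119). SYT4 stood at 1.61 and 2.02 CPM in vehicle, 1.58 and 1.40 in DEP, 1.25 and 0.847 in DProP, 0.544 and 0.515 in DPP, and 2.59 and 1.45 in Mix. SYT4, another atypical member, was low throughout and fell in DPP (-1.77 ± 0.32, adjusted p = 0.00117). Its Mix libraries included the highest of all.

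Of the vesicle proteins, the synapsins tether vesicles in the reserve pool and synaptophysin (SYP) is the most used vesicle marker. SYN1 stood at 5.98 and 6.95 CPM in vehicle, 5.28 and 5.08 in DEP, 3.65 and 4.07 in DProP, 4.17 and 3.38 in DPP, and 5.73 and 5.89 in Mix. SYN1 fell in DProP (-0.74 ± 0.15, adjusted p = 0.00311) and DPP (-0.77 ± 0.15, adjusted p = 0.00192) and was not called in DEP (-0.32 ± 0.15, adjusted p = 0.136) or Mix (-0.15 ± 0.15, adjusted p = 0.505). SYP stood at 13.6 and 13.6 CPM in vehicle, 9.38 and 10.4 in DEP, 7.04 and 7.10 in DProP, 9.58 and 7.42 in DPP, and 12.04 and 13.2 in Mix. SYP fell in DEP (-0.46 ± 0.13, adjusted p = 0.0224), DProP (-0.94 ± 0.13, adjusted p = 0.000284) and DPP (-0.67 ± 0.13, adjusted p = 0.00165), and its Mix libraries lay just under the vehicle ones. SV2B stood at 6.70 and 7.29 CPM in vehicle, 6.78 and 6.41 in DEP, 5.30 and 4.13 in DProP, 2.96 and 2.998 in DPP, and 8.71 and 8.65 in Mix. SV2B, a vesicle glycoprotein, was close to vehicle in DEP (-0.08 ± 0.14, not called), fell in DProP (-0.57 ± 0.14, adjusted p = 0.00924) and fell further in DPP (-1.23 ± 0.14, adjusted p = 6.89e-05), while both Mix libraries were above both vehicle libraries without a call (0.31 ± 0.14, adjusted p = 0.133).

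The remaining vesicle genes were mixed. SV2A, the more abundant paralogue of SV2B, was not called and had group means of 53.95 to 66.2 CPM. SYN2 fell in DPP (-1.31 ± 0.42, adjusted p = 0.028) from a low level, with group means of 0.901 CPM in vehicle and 0.359 in DPP. SYN3 fell in DPP (-0.70 ± 0.18, adjusted p = 0.00984). SYNGR3, a vesicle tetraspan protein, and SNAP91, a clathrin adaptor for vesicle retrieval, were under 2.5 CPM in group mean and never called. SYN1 and SYN3 have TIMP genes inside their introns on the other strand. The sources used here do not say whether counting used strand, so reads where such genes overlap could not be assigned.

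At the active zone the vesicle GTPase RAB3A was lower in DProP and DPP than in the other groups. RAB3A stood at 16.4 and 19.1 CPM in vehicle, 15.2 and 14.3 in DEP, 9.80 and 9.99 in DProP, 10.2 and 9.96 in DPP, and 14.6 and 16.1 in Mix. RAB3A (chr19:18196784-18204042) fell in DProP (-0.84 ± 0.10, adjusted p = 0.000137) and DPP (-0.81 ± 0.10, adjusted p = 0.000113), and was not called in DEP (-0.27 ± 0.10, adjusted p = 0.0762) or Mix (-0.21 ± 0.10, adjusted p = 0.17). BSN stood at 85.3 and 87.3 CPM in vehicle, 71.1 and 65.2 in DEP, 65.6 and 59.1 in DProP, 51.9 and 53.7 in DPP, and 72.1 and 80.3 in Mix. Bassoon fell in DEP (-0.34 ± 0.08, adjusted p = 0.0075), DProP (-0.47 ± 0.08, adjusted p = 0.000793) and DPP (-0.71 ± 0.08, adjusted p = 3.54e-05), with its Mix libraries between. PCLO stood at 17.3 and 14.3 CPM in vehicle, 22.3 and 20.2 in DEP, 22.1 and 20.1 in DProP, 19.3 and 24.7 in DPP, and 16.9 and 16.8 in Mix. Piccolo, the other giant scaffold of the active zone, went the other way and rose in DEP (0.43 ± 0.13, adjusted p = 0.0306), DProP (0.41 ± 0.13, adjusted p = 0.0274) and DPP (0.47 ± 0.13, adjusted p = 0.0127). RIMS2, a RIM scaffold, fell in DPP (-0.61 ± 0.12, adjusted p = 0.00232). RIMS1 stayed near 0.509 CPM in vehicle, and the priming factor UNC13A had group means of 39.6 to 47.5 CPM, and neither was called.

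The vesicular glutamate transporter SLC17A6 (VGLUT2) was at the edge of detection. It had 20 and 11 reads in the vehicle libraries, 0 and 10 in DEP, 6 and 8 in DProP, 0 and 0 in DPP, and 4 and 6 in Mix. Set against a floor of 3 reads over the DPP group, its level was at least 11.9-fold lower in DPP than in vehicle. That bound covers counting error in the DPP group only and takes the vehicle reads as exact. The adjusted p of 0.0137 is from edgeR's test of the fitted change, not of the bound. The call ended without vehicle replicate 1 and without either DPP library, with adjusted p values up to 0.0749.

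The neuroligins were at or above the vehicle level in Mix and mostly below it in the single phthalates. NLGN3 stood at 236 and 262 CPM in vehicle, 202 and 214 in DEP, 179 and 193 in DProP, 186 and 178 in DPP, and 248 and 254 in Mix. NLGN3 fell in DEP (-0.26 ± 0.07, adjusted p = 0.0167), DProP (-0.42 ± 0.07, adjusted p = 0.000729) and DPP (-0.45 ± 0.07, adjusted p = 0.000337), and its Mix libraries lay within the vehicle range. NLGN2 stood at 180.5 and 195 CPM in vehicle, 149.8 and 153 in DEP, 151 and 149.5 in DProP, 157 and 148 in DPP, and 184 and 214 in Mix. NLGN2, the neuroligin of inhibitory synapses, also fell in DEP (-0.31 ± 0.07, adjusted p = 0.0113), DProP (-0.32 ± 0.07, adjusted p = 0.00684) and DPP (-0.30 ± 0.07, adjusted p = 0.00777), but with the GC and length correction its adjusted p was 0.49, 0.573 and 0.745, the largest over its alternatives. NLGN1 stood at 79.3 and 69.7 CPM in vehicle, 65.8 and 71.6 in DEP, 67.02 and 69.4 in DProP, 65.3 and 61.2 in DPP, and 94.4 and 84.5 in Mix. NLGN1, found mainly at excitatory synapses, fell in DPP (-0.24 ± 0.08, adjusted p = 0.0386) and rose in Mix (0.26 ± 0.08, adjusted p = 0.0376). Of their presynaptic partners, NRXN2 fell in DProP (-0.56 ± 0.16, adjusted p = 0.0211) and DPP (-0.52 ± 0.16, adjusted p = 0.0272), and NRXN3, at most 2.33 CPM in group mean, was not called.

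AMPA receptors are tetramers of GRIA subunits, and GRIA2 makes them impermeable to calcium. GRIA1 stood at 512 and 507 CPM in vehicle, 373 and 388 in DEP, 399 and 432 in DProP, 353 and 393 in DPP, and 341 and 368 in Mix. GRIA1, the most abundant subunit, fell in DEP (-0.42 ± 0.07, adjusted p = 0.00141), DProP (-0.29 ± 0.07, adjusted p = 0.00672), DPP (-0.45 ± 0.07, adjusted p = 0.000421) and Mix (-0.52 ± 0.07, adjusted p = 0.000373). GRIA2 stood at 54.1 and 49.7 CPM in vehicle, 61.7 and 64.9 in DEP, 58.6 and 52.04 in DProP, 51.4 and 52.9 in DPP, and 71.02 and 73.2 in Mix. GRIA2 rose in DEP (0.29 ± 0.07, adjusted p = 0.0151) and Mix (0.47 ± 0.07, adjusted p = 0.00111), while DProP and DPP overlapped vehicle. GRIA3 stood at 15.2 and 17.1 CPM in vehicle, 20.2 and 21.4 in DEP, 17.6 and 18.8 in DProP, 19.4 and 19.5 in DPP, and 25.8 and 25.01 in Mix. GRIA3 rose in DEP (0.36 ± 0.09, adjusted p = 0.0115), DPP (0.27 ± 0.09, adjusted p = 0.0313) and Mix (0.65 ± 0.09, adjusted p = 0.000441).

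The ratio of GRIA2 to GRIA1 counts within a library does not depend on scaling between libraries. It was 0.106 and 0.0981 in vehicle, 0.165 and 0.167 in DEP, 0.147 and 0.121 in DProP, 0.145 and 0.134 in DPP, and 0.208 and 0.199 in Mix. Every treated library was above both vehicle libraries, and Mix was highest. With 2 libraries in a group, an exact permutation test of a single pair of groups cannot pass 0.05, so the ratio is given as a description. It shows unequal change of GRIA1 and GRIA2, and their counts are not corrected for length or GC content. Treatment and preparation cannot be told apart in this ratio either when treated libraries are set against vehicle. GRIN2B, the NMDA subunit of young neurons, had group means of 18.8 to 22 CPM and was not called, and neither GRIN1 nor GRIA4 reached 1 CPM in any group mean.

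Among the postsynaptic scaffolds SHANK3 fell and HOMER1 rose. SHANK3 stood at 16.1 and 15.8 CPM in vehicle, 9.46 and 9.05 in DEP, 10.3 and 11.6 in DProP, 8.98 and 10.4 in DPP, and 11.3 and 12.8 in Mix. SHANK3 fell in DEP (-0.79 ± 0.11, adjusted p = 0.000704), DProP (-0.55 ± 0.11, adjusted p = 0.00371), DPP (-0.72 ± 0.11, adjusted p = 0.000541) and Mix (-0.41 ± 0.11, adjusted p = 0.0237), with all treated libraries below vehicle. The correction for GC content and length ended its DProP and Mix calls. HOMER1 stood at 15.6 and 15.2 CPM in vehicle, 18.1 and 17.4 in DEP, 19.9 and 21.3 in DProP, 24.2 and 27.6 in DPP, and 19.7 and 18.8 in Mix. HOMER1 (chr5:79372636-79514134), which links metabotropic glutamate receptors to SHANK proteins, rose in DProP (0.42 ± 0.09, adjusted p = 0.00434), DPP (0.75 ± 0.09, adjusted p = 8.19e-05) and Mix (0.32 ± 0.09, adjusted p = 0.026), and the DPP libraries were the highest. Long and short HOMER1 forms were counted together. The Mix call ended without any 1 of the 4 libraries compared.

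Of the other scaffolds, DLG2 (PSD-93) rose in DPP (0.76 ± 0.21, adjusted p = 0.014), and SHANK2, under 1 CPM, fell there (-1.71 ± 0.51, adjusted p = 0.0211). GPHN, the gephyrin scaffold of inhibitory synapses, rose in Mix (0.22 ± 0.06, adjusted p = 0.0349), a call that ended without any 1 of the 4 libraries. DLG4 (PSD-95) had group means of 76.7 to 81.4 CPM and the spine protein SYNPO 95 to 108 CPM. Neither was called, nor were SHANK1 and DLGAP1, both near 1 CPM or lower.

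**Figure D3:**
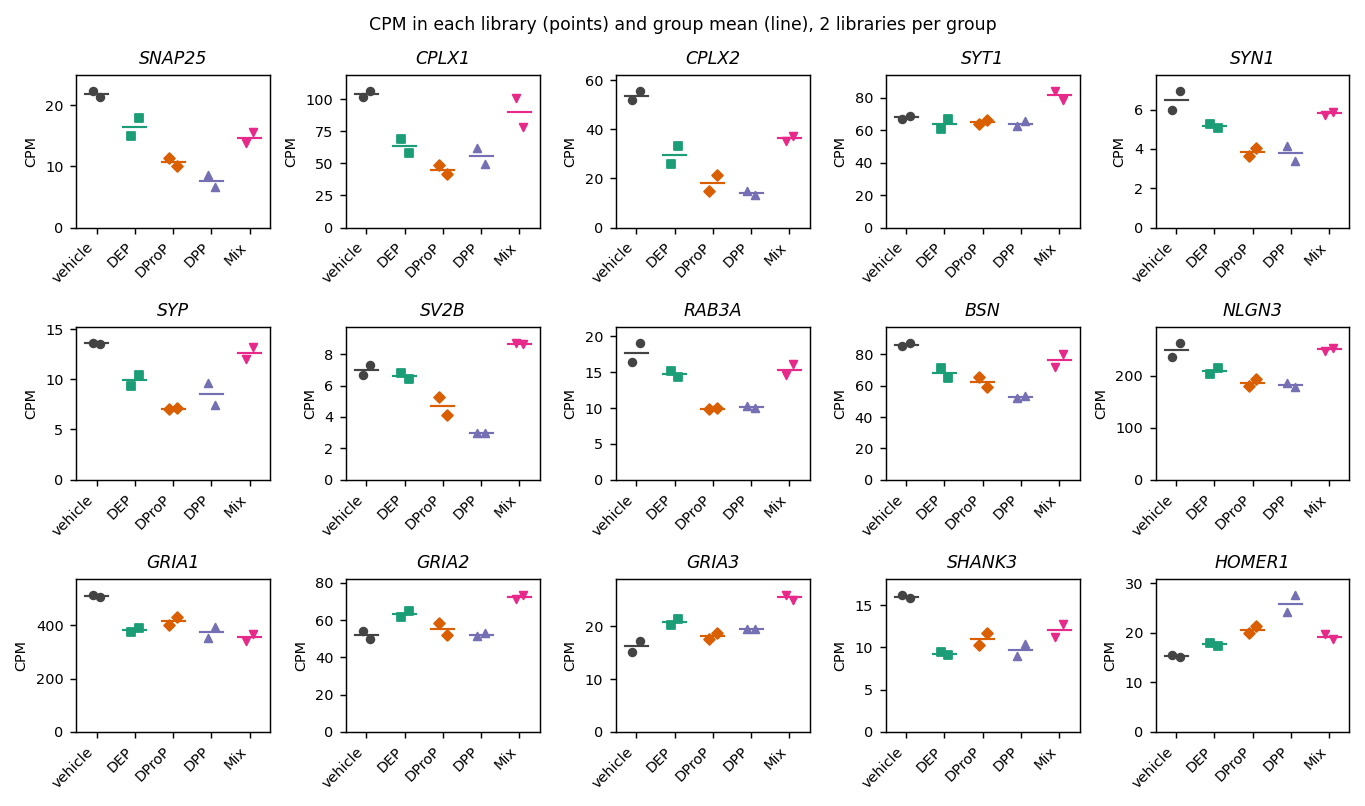
CPM of 15 synaptic genes in each of the 10 libraries (points) with the mean of each group of 2 (line). For CPLX2 the vehicle libraries sit at 51.8 and 55.6 CPM and DPP at 14.8 and 13.3, while HOMER1 runs the other way, from 15.6 and 15.2 to 24.2 and 27.6.

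The phthalates were then compared with each other at the shared labelled dose, in 6 pairs that each have p-values adjusted over all tested genes. DProP differed from DEP in 1 synaptic gene, RAB3A, which was lower in DProP (-0.58 ± 0.10, adjusted p = 0.0322), and in none that was higher. Among all tested genes 0.134% were lower and 0.39% higher (protein-coding: 0.154% and 0.51%). The RAB3A call ended without any 1 of the 4 libraries, with adjusted p values up to 0.277. SNAP25 (-0.62 ± 0.14, adjusted p = 0.0687, interval -0.91 to -0.32) and CPLX2 (-0.69 ± 0.16, adjusted p = 0.0988, interval -1.05 to -0.33) did not pass, and these 95% intervals leave room for sizeable differences, so the compounds are not shown to act alike.

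DPP was lower than DEP in 6 synaptic genes and higher in 1, beside 1.58% and 1.36% of all tested genes (protein-coding: 1.98% and 1.75%). SYT4 (-1.49 ± 0.32, adjusted p = 0.0279), SV2B (-1.15 ± 0.14, adjusted p = 0.00165), SNAP25 (-1.11 ± 0.14, adjusted p = 0.00156), CPLX2 (-1.07 ± 0.16, adjusted p = 0.00872), RAB3A (-0.55 ± 0.10, adjusted p = 0.0159) and BSN (-0.37 ± 0.08, adjusted p = 0.0252), all of the vesicle and release machinery, were lower in DPP. HOMER1 was higher (0.55 ± 0.09, adjusted p = 0.00767). The SNAP25 and SV2B calls held without any 1 library, while the other 5 ended without DEP replicate 2 or DPP replicate 2, among others. The calls numbered 3 without DEP replicate 1 and 2 without either of those libraries.

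Between DPP and DProP edgeR called 0 of the 44 genes, beside 0.118% of all tested genes that were lower and 0.144% that were higher. At an unadjusted p under 0.05 there were 12 (27.3%, against 12.1% of all tested genes), DESeq2 called 2, beside 2.05% of all tested genes, and limma-voom called 0. SV2B came nearest (-0.66 ± 0.14, adjusted p = 0.0918, interval -0.97 to -0.34). For SNAP25 the difference was -0.50 ± 0.14 with an interval of -0.80 to -0.20, and for CPLX1 it was 0.31 ± 0.15 with -0.04 to 0.65.

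Mix was higher than each single phthalate in synaptic genes more often than lower. Against DEP, 4 genes were higher and 0 lower, beside 2.85% and 1.02% of all tested genes (protein-coding: 3.66% and 1.13%). These 4 were NLGN2 (0.39 ± 0.07, adjusted p = 0.0158), NLGN1 (0.38 ± 0.08, adjusted p = 0.0241), SYT1 (0.36 ± 0.07, adjusted p = 0.0156) and NLGN3 (0.27 ± 0.07, adjusted p = 0.0467). Without either DEP library this count was 0, and without Mix replicate 1 it was 1. Of the genes not called, SNAP25 gave -0.17 ± 0.13, with an interval of -0.46 to 0.13, and CPLX1 0.50 ± 0.15, with 0.16 to 0.84.

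Against DProP, 13 genes were higher in Mix and 0 lower, beside 4.36% and 2.53% of all tested genes (protein-coding: 5.61% and 3.02%). The largest differences were in CPLX1 (1.00 ± 0.15, adjusted p = 0.0065), CPLX2 (0.99 ± 0.16, adjusted p = 0.00653), SV2B (0.88 ± 0.14, adjusted p = 0.00384) and SYP (0.84 ± 0.13, adjusted p = 0.00334), followed by RAB3A, SYN1, GRIA3, NLGN3, NLGN2, NLGN1, GRIA2, SYT1 and BSN. CPLX1, CPLX2, SV2B, SYP, RAB3A and NLGN3 held in all alternatives but the 2-fold minimum. The count was 7 without DProP replicate 2 or Mix replicate 1, and 8 without DProP replicate 1.

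Against DPP, 17 genes were higher in Mix and 1 lower, beside 10.4% and 6.82% of all tested genes (protein-coding: 13.3% and 8.19%). SYT4 (1.93 ± 0.31, adjusted p = 0.00168), SHANK2 (1.78 ± 0.50, adjusted p = 0.0304), SV2B (1.54 ± 0.14, adjusted p = 5.53e-05) and CPLX2 (1.37 ± 0.16, adjusted p = 0.000532) differed most. SNAP25, SYN3, CPLX1, SYN1, RAB3A, SYP, BSN, NLGN1, NLGN3, NLGN2, GRIA2, GRIA3 and SYT1 were the others, and HOMER1 was lower (-0.43 ± 0.09, adjusted p = 0.00691). Without DPP replicate 2 there were 11 calls, none of them lower, and SHANK2 lost its call without any 1 of the 4 libraries. Over the 3 comparisons with Mix, which share its 2 libraries, the medians of the synaptic genes were 0.135 against DEP, 0.18 against DProP and 0.347 against DPP. The summed level of the neuron markers was 1746 to 1780 CPM in Mix and 1147 to 1573 in the single phthalates. Of these 11 markers, 0 were higher in Mix than in DEP, 7 than in DProP and 7 than in DPP, while NEFL, a neurofilament subunit, was lower in Mix in all 3 comparisons (-0.67 ± 0.10, -1.24 ± 0.10 and -1.70 ± 0.10). The part of neuron markers in the Mix values was not tested.

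**Figure D4:**
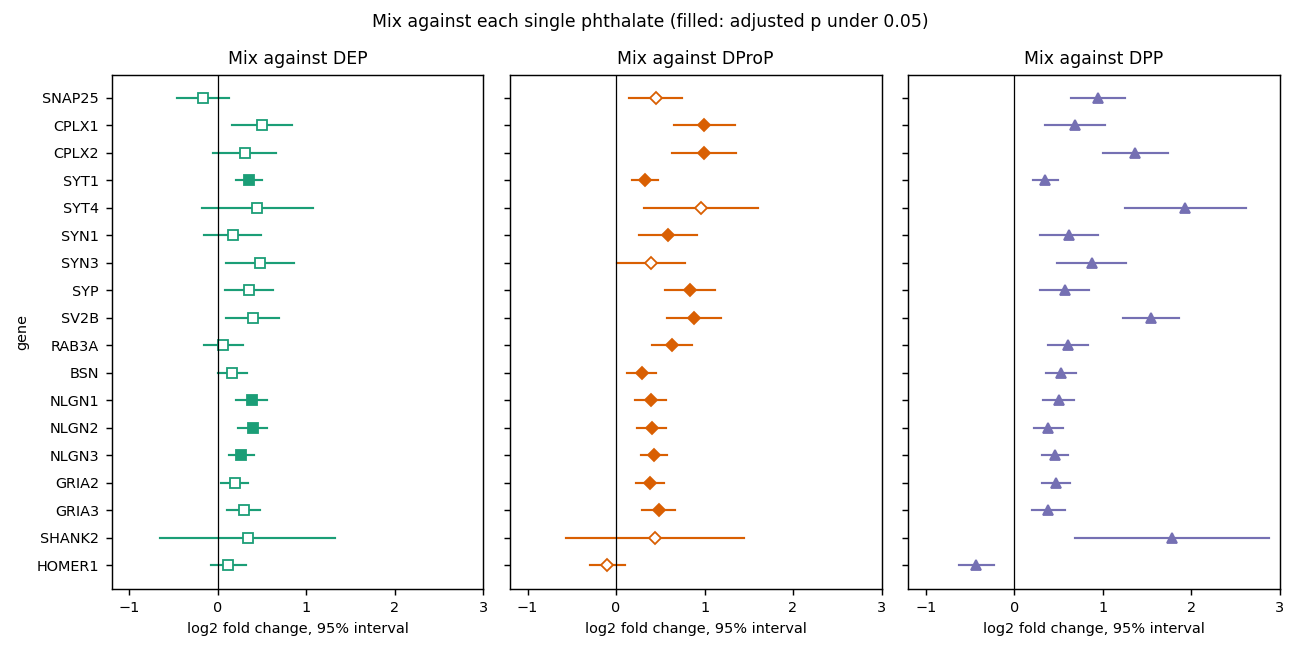
Log2 fold change of Mix against DEP, DProP and DPP (panels) with 95% intervals for the 18 synaptic genes called in at least 1 of the 3; filled symbols passed an adjusted p of 0.05. Values lie mostly right of 0, with 4 filled symbols against DEP, 13 against DProP and 18 against DPP, of which HOMER1 alone is left of 0.

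Further synaptic genes, from a list of release-machinery genes made by function, were counted in the same way. Of 34 tested other presynaptic genes, 7 fell and 4 rose in DEP, 10 and 6 in DProP, 10 and 5 in DPP, and 3 and 6 in Mix. The share that fell was 20.6%, 29.4%, 29.4% and 8.82%, against 13.5%, 17.5%, 19.5% and 10.7% of all tested genes. The share that rose was 11.8%, 17.6%, 14.7% and 17.6%, against 10.1%, 14.7%, 16.7% and 9.71%, so several of these counts are near those of all genes. Of tested protein-coding genes 16.8%, 21.6%, 24.2% and 12.9% fell and 8.08%, 13.3%, 15.6% and 8.72% rose. RAB3C, a relative of RAB3A, fell in DEP (-0.59 ± 0.18, adjusted p = 0.0314), DProP (-0.84 ± 0.18, adjusted p = 0.00415) and DPP (-1.41 ± 0.18, adjusted p = 0.000129), and RIMS3 fell in DProP (-1.28 ± 0.21, adjusted p = 0.00401) and DPP (-1.59 ± 0.22, adjusted p = 0.00124). PPFIA2, a liprin scaffold, rose in all 4 (0.61 ± 0.10, 0.71 ± 0.10, 0.76 ± 0.10 and 0.39 ± 0.10), as did DNM1, the dynamin of vesicle retrieval (0.29 ± 0.08, 0.47 ± 0.08, 0.60 ± 0.08 and 0.33 ± 0.08). SYPL1, the most abundant of them by counts, fell in all 4 (-0.49 ± 0.09, -0.56 ± 0.09, -0.37 ± 0.09 and -0.57 ± 0.09). Their medians were -0.0447, -0.0806, -0.141 and 0.0715.

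The repressor REST itself was not called against vehicle in any treatment, at -0.10 ± 0.09 in DEP, -0.03 ± 0.09 in DProP, -0.05 ± 0.09 in DPP and 0.02 ± 0.09 in Mix. Of 9 tested genes for REST and its corepressors, 2, 2, 3 and 1 fell in DEP, DProP, DPP and Mix, and 1, 1, 2 and 1 rose. The share that fell was 22.2%, 22.2%, 33.3% and 11.1%, against 13.5%, 17.5%, 19.5% and 10.7% of all tested genes. The share that rose was 11.1%, 11.1%, 22.2% and 11.1%, against 10.1%, 14.7%, 16.7% and 9.71%. Among the 9, RCOR2, a CoREST paralogue, fell in DEP (-0.71 ± 0.14, adjusted p = 0.00585), DProP (-1.29 ± 0.14, adjusted p = 0.000176), DPP (-1.45 ± 0.14, adjusted p = 6.18e-05) and Mix (-0.55 ± 0.14, adjusted p = 0.0202), and RCOR1 rose in all 4 (0.28 ± 0.07, 0.33 ± 0.07, 0.19 ± 0.07 and 0.30 ± 0.07).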

How the data were processed

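RNA-seq was done on 10 libraries of ReNcell VM neurospheres, made with an exome-capture RNA kit per the labels' protocols. The deposited table holds read counts per gene made by the authors. Per the submitters' processing notes the build was GRCh38 and the tools HISAT2 2.1.0, StringTie 2.1.3b, Trimmomatic 0.38, FastQC, R 4.3.2 and edgeR 4.0.9. Which annotation, strand setting and rule for multi-mapped reads they used is not given in the sources used. Capture baits and multi-mapped reads can shift levels between genes.

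Counts were fitted with edgeR 4.0.16 (R 4.3.3): filterByExpr, TMM scaling, robust quasi-likelihood tests, all 5 groups in 1 model with 5 residual degrees of freedom, 10 comparisons, Benjamini-Hochberg adjustment over 19465 genes within each comparison and a threshold of 0.05. Libraries of a group varied by 9.4% (edgeR's common biological coefficient of variation), and 95% intervals in DEP against vehicle extended a median 0.262 log2 units to each side over all tested genes. CPM used TMM-scaled library sizes. Fold changes are log2 of the first group over the second.

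The alternatives were scaling by library size alone or by relative log expression, no filter or a stricter one (CPM of 1 in 2 libraries), limma-voom 3.58.1, DESeq2 1.42.0, a 2-fold minimum, a GC and length correction, the compared groups alone, no vehicle libraries, a replicate block, and leaving out each library. Genes named with library values were called genes without overlap between groups, up to 8 each way against vehicle and 4 between treatments, and the most abundant of each role. From other lists up to 3 each way and the most abundant were named. Genes, lists and alternatives were chosen with earlier results of these data known. Coding lengths came from GENCODE 29, promoter windows from RefSeq.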

Additional observations from a re-analysis of the deposited data

How the results depend on the processing

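Of 110 calls of synaptic genes over all 10 comparisons, 54 held in every alternative other than the 2-fold minimum, and no direction reversed. With a 2-fold minimum, calls numbered 2 in DPP against vehicle and 0 in DEP, DProP and Mix against vehicle and in the 5 comparisons between treatments that had any. The GC and length correction gave 8 calls in DEP, 7 of them among the 13. DProP against DEP (1 call) gave 3 with the stricter filter, 6 with DESeq2 and 3 with the compared groups alone. DPP against DEP (7) gave 11 with DESeq2. DPP against DProP (0) gave 1 with the stricter filter and 2 with DESeq2. Mix against DEP (4) gave 7 with DESeq2 and 8 with the compared groups alone. Leaving out 1 library gave 5 to 10 calls in DEP, 14 to 18 in DProP, 17 to 23 in DPP and 4 to 9 in Mix against vehicle. Between treatments it gave 0 to 1 in DProP against DEP, 2 to 7 in DPP against DEP, 0 to 0 in DPP against DProP, 0 to 4, 7 to 11 and 11 to 19 in Mix against DEP, DProP and DPP. A lone library left in a group was assumed to vary like the other groups.

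The replicate numbers did not pair the samples: same-numbered libraries deviated together with correlations of -0.0465 to 0.0471. With the replicate block 107 of the 110 calls held, and no count of calls moved by more than 1.5 times.

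Over all tested genes a 2-fold minimum left 133 of 4601 calls in DEP, 204 of 6266 in DProP, 406 of 7049 in DPP and 69 of 3970 in Mix against vehicle. In DProP against DEP the 102 calls were 9 to 612 under other settings (1 with the 2-fold minimum), and in DPP against DProP the 51 were 5 to 400 (1 with it).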

Other observations

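Other postsynaptic genes, on a list chosen by function, were counted against vehicle. Of 42 tested, 12 fell and 3 rose in DEP, 15 and 5 in DProP, 17 and 7 in DPP, and 3 and 2 in Mix, with medians of -0.145, -0.142, -0.227 and -0.0595. The share that fell was 28.6%, 35.7%, 40.5% and 7.14%, against 13.5%, 17.5%, 19.5% and 10.7% of all tested genes. The share that rose was 7.14%, 11.9%, 16.7% and 4.76%, against 10.1%, 14.7%, 16.7% and 9.71%, so in Mix both shares were below those of all genes. Of tested protein-coding genes 16.8%, 21.6%, 24.2% and 12.9% fell and 8.08%, 13.3%, 15.6% and 8.72% rose. GRIN2D stood at 61.1 and 61.4 CPM in vehicle, 26.4 and 28.3 in DEP, 18.6 and 20.6 in DProP, 14.6 and 10.8 in DPP, and 37.8 and 43.9 in Mix. GRIN2D, an NMDA receptor subunit, fell in DEP (-1.16 ± 0.12, adjusted p = 0.000117), DProP (-1.64 ± 0.12, adjusted p = 8.74e-06), DPP (-2.27 ± 0.13, adjusted p = 1.61e-06) and Mix (-0.58 ± 0.12, adjusted p = 0.00671) by edgeR's test.

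Some auxiliary subunits of AMPA receptors, named by the size of their change, moved apart. Of the others on the list, CACNG2 was not tested and CACNG3 had no counts in any library. CNIH3 stood at 13.6 and 14.3 CPM in vehicle, 19.2 and 21.4 in DEP, 23.6 and 28.5 in DProP, 32.1 and 34.9 in DPP, and 19.4 and 21.7 in Mix. CNIH3, a cornichon, rose in DEP (0.54 ± 0.11, adjusted p = 0.00423), DProP (0.90 ± 0.11, adjusted p = 0.000122), DPP (1.27 ± 0.11, adjusted p = 8.11e-06) and Mix (0.56 ± 0.11, adjusted p = 0.00425) by edgeR's test. CACNG4 and CACNG7, which encode transmembrane AMPA receptor regulatory proteins, fell in DEP, DProP and DPP (-0.60 ± 0.09, -0.85 ± 0.09 and -0.91 ± 0.09 for CACNG4, -0.31 ± 0.07, -0.50 ± 0.07 and -0.37 ± 0.07 for CACNG7) and were not called in Mix. CACNG7 was named after its values were seen. CAMK2A, a kinase of the postsynaptic density, rose in DProP (0.64 ± 0.17, adjusted p = 0.0133) and DPP (0.88 ± 0.17, adjusted p = 0.00185).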
